A study of Homo sapiens with 4 samples.

Results

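Chromosome 5 has a short arm, 5p, and a long arm, 5q. The regions described here are the ChIP-seq peaks of 4 lists that lay on 5p from 3 to 43.4 Mb or on 5q from 52.4 to 177.9 Mb (GRCh37), so that the ends of the chromosome and the surroundings of its centromere were left out. They numbered 763 of the 11483 peaks in all 4 lists, 470 on 5p and 293 on 5q. A peak was included by its position and not by its tags, score or fold enrichment, but the chromosome itself was chosen with earlier results of these data known.

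The cells were OECM1, an established line from a head and neck cancer, grown in RPMI medium with 10% fetal bovine serum. All groups carried Cas9. Control cells received the construct named Cas9-ctrl, and edited cells received ARID3B-Cas9, which targets ARID3B. The sample titles call the second kind a knockdown, the series title calls it a knockout, and the labels do not name a clone. Chromatin was isolated with either an ARID3B or a KDM4C antibody, which gave 4 groups of 1 library each. Without a replicate, every comparison below is between libraries. The 95% intervals are exact and cover counting error only, and no p-value is given, because peaks are not replicates.

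ARID3B belongs to a family of proteins that bind AT-rich DNA, and KDM4C is an enzyme that removes methyl groups from histones. Squamous cancers, head and neck cancers among them, often carry extra copies of 5p. That arm holds TERT, which encodes the catalytic part of telomerase, in the end segment left out here. Copies of an arm matter to a peak list made without an input library, because DNA that is present in more copies gives more tags to every antibody. Copy number was not measured in these data.

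The libraries held 16209985 to 24439463 tags after the caller removed repeats, and 1494 to 4834 peaks. Peaks were small. The median peak of a whole list held 12 or 14 tags, and the smallest held 9 or 10. Of the 763 chromosome 5 peaks, the 4 lists contributed 233 and 363 for ARID3B, and 64 and 103 for KDM4C, the control library first in each pair.

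The short arm carried several times more peaks per Mb than the long arm in each of the 4 libraries. With the ARID3B antibody, 5p had 139 peaks in control cells, or 3.44 per Mb (95% interval 2.89 to 4.06), and 230 in edited cells, or 5.69 per Mb (4.98 to 6.48). On 5q the same antibody gave 94 peaks, or 0.749 per Mb (0.605 to 0.917), and 133 peaks, or 1.06 per Mb (0.887 to 1.26). The intervals of the arms did not overlap within either library. With the KDM4C antibody, 5p had 31 peaks in control cells, or 0.767 per Mb (0.521 to 1.09), and 70 in edited cells, or 1.73 per Mb (1.35 to 2.19). The 5q count was 33 in each kind of cell, or 0.263 per Mb (0.181 to 0.369). Here too the intervals of the arms stayed apart.

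Expressed as a ratio, the density of 5p was 4.59 times that of 5q for ARID3B in control cells (3.51 to 6.03) and 5.37 times in edited cells (4.32 to 6.70). For KDM4C it was 2.92 times in control cells (1.73 to 4.92) and 6.59 times in edited cells (4.30 to 10.3). The excess was thus present with both antibodies, and the size of the ratio was not separated between them. The ARID3B ratio over the KDM4C ratio was 1.57 in control cells (0.868 to 2.85) and 0.816 in edited cells (0.494 to 1.33). The excess was also present in weak and in stronger peaks. Among peaks with a score under 60, a score being log10 of the p-value times minus 10 and the threshold 50, the ARID3B ratio was 4.30 in control and 4.81 in edited cells, and the KDM4C ratio 2.42 and 4.66. Between 60 and 100 it was 5.67 and 6.64 for ARID3B and 4.97 for control KDM4C, and the edited KDM4C library had 25 peaks on 5p against 3 on 5q. Scores of 100 or more were rare, with 2 to 9 peaks a library on 5p and 1 to 6 on 5q.

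Against the other autosomes, 5p stood at or near the top, and 5q near the middle in all but the edited KDM4C library. For this comparison the other chromosomes were trimmed by the same margins, 3 Mb from each end and from the centromere gap, which left 37 arms. Other stretches without sequence were not taken out of their lengths. No other arm was denser than 5p in the control ARID3B library, where they ranged from 0 to 2.50 peaks per Mb with a median of 0.701. None was denser in the edited ARID3B library (0.168 to 4.29, median 1.02) or in the edited KDM4C library (0.0373 to 1.44, median 0.396). The highest value in the edited KDM4C library, 1.44 on 9q, lay within the 5p interval of 1.35 to 2.19. In the control KDM4C library 1 arm, 9q, was denser (0.908 peaks per Mb). The 5q density lay near the medians for ARID3B, with 16 and 17 of the 37 arms above it in control and edited cells, and for control KDM4C, with 20 above. In the edited KDM4C library 29 of the 37 arms were denser than 5q.

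**Figure D1:**
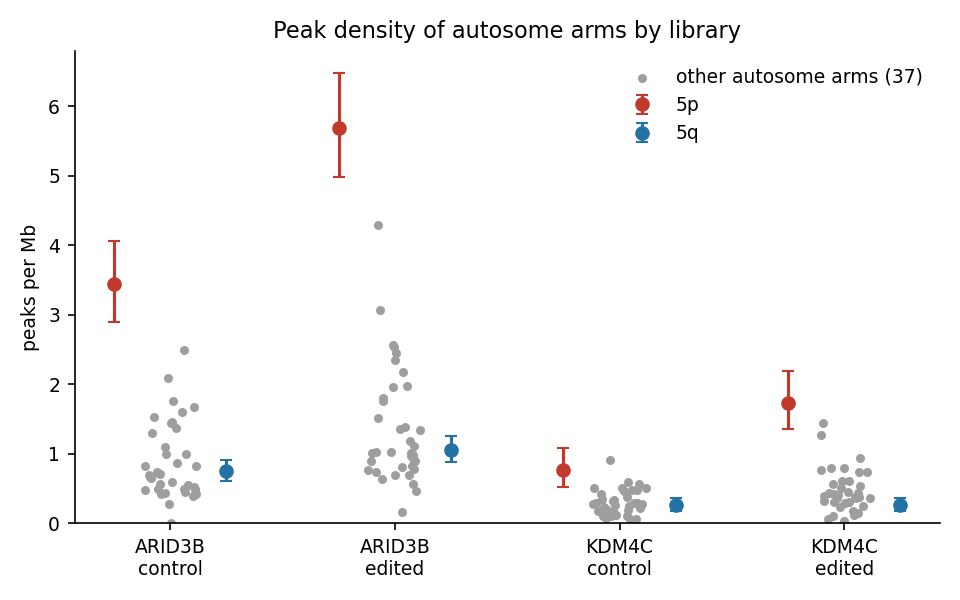
Peaks per Mb (vertical axis) in each library (horizontal axis), for 5p (red), 5q (blue) and 37 other autosome arms trimmed by the same margins (grey, 1 point an arm). Bars are exact Poisson 95% intervals. The 5p point lies above every grey point except in the control KDM4C library, where 1 arm is higher, and 5q lies among the grey points.

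With the ARID3B antibody the excess ran along the whole short arm and did not come from 1 stretch. In 5 Mb windows laid from the start of each arm, the 8 windows of 5p held 11 to 26 control ARID3B peaks (median 16.5), and the 25 windows of 5q held 1 to 9 (median 4). In edited cells they held 21 to 39 (median 26) on 5p and 0 to 11 (median 5) on 5q. The lowest 5p window was therefore above the highest 5q window in both ARID3B libraries. For KDM4C the arms overlapped, with 1 to 9 control peaks a window (median 3.5) on 5p and 0 to 7 (median 1) on 5q. In that list 14 of the 25 windows of 5q were at or above the lowest window of 5p. In edited cells the 5p windows held 3 to 12 (median 10) and the 5q windows 0 to 3 (median 1), and 7 of the 8 windows of 5p were above the highest of 5q. No 5p window was empty in any list, whereas 11 control and 8 edited KDM4C windows and 1 edited ARID3B window of 5q were.

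Summed over the 4 lists, the fullest 5p window was that from 18 to 23 Mb, with 76 peaks. It held 26 control ARID3B, 38 edited ARID3B, 7 control KDM4C and 5 edited KDM4C peaks. The emptiest, from 8 to 13 Mb, held 45, so that the sums on 5p differed by less than a factor of 2. Apart from edited ARID3B, the single lists varied more, from 11 to 26 control ARID3B, 1 to 9 control KDM4C and 3 to 12 edited KDM4C peaks. On 5q the fullest window was that from 67.4 to 72.4 Mb, with 26 peaks, 7 of them in each control list, 11 in edited ARID3B and 1 in edited KDM4C. The emptiest 5q windows, from 82.4 to 87.4 and from 97.4 to 102.4 Mb, held 4 each.

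The spread between windows can be set against Poisson counting, for which the variance equals the mean. On 5p the variance to mean ratio was 1.42 (control) and 1.68 (edited) for ARID3B, and 2.1 and 1.49 for KDM4C. On 5q it was 1.56 and 1.48 for ARID3B and 2.38 and 1.06 for KDM4C. This measure put neither arm first in all 4 lists, and on 5p it went from 1.68 to 1.06 for edited ARID3B when the windows were laid from the other end. The relative spread was smaller on the fuller arm, with an SD of 28.7% and 24.2% of the mean for ARID3B on 5p and of 64.4% and 52.9% on 5q. The SD of KDM4C counts was 73.6% and 41.3% of the mean on 5p and 136% and 89.4% on 5q. Windows that were full in one ARID3B list were also the fuller ones in the other on 5q (Spearman rho 0.66 over 25 windows) but not on 5p (rho -0.12 over 8 windows). Between the KDM4C lists rho was 0.16 on 5q and 0.06 on 5p. These are descriptions, as windows share their mappable length between lists and many hold few peaks.

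**Figure D2:**
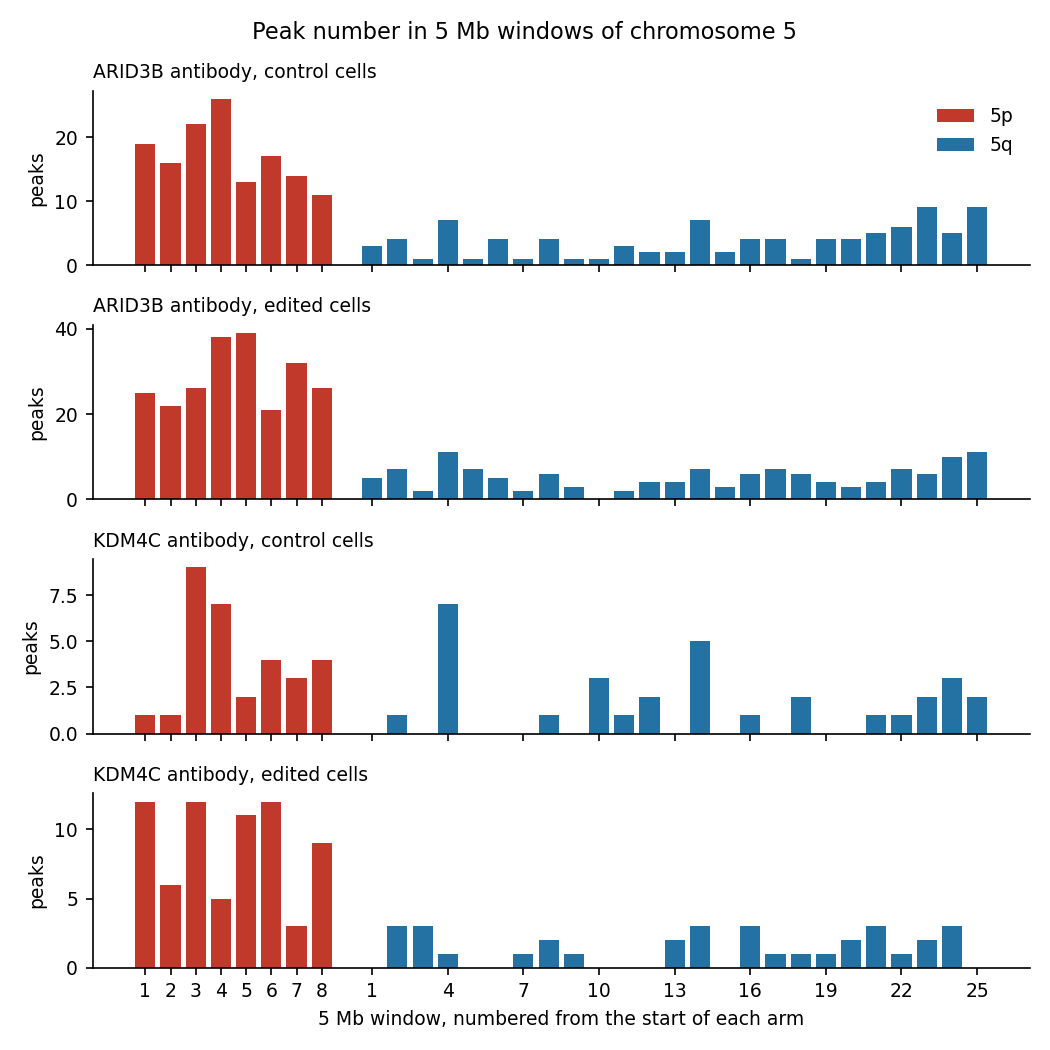
Number of peaks (vertical axis, a scale of its own for each library) in 5 Mb windows numbered from the start of 5p (red, 8 windows) and of 5q (blue, 25 windows). In both ARID3B libraries each red bar is taller than every blue bar, and in the control KDM4C library the arms overlap.

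Edited and control cells were then compared on each arm. ARID3B peaks on 5p numbered 230 in edited and 139 in control cells, a ratio of 1.65 (1.33 to 2.06). All chromosomes other than 5, which were not trimmed here, gave 1.48. On 5q the ratio was 1.41 (1.08 to 1.86). Relative to the other chromosomes these were 1.12 (0.897 to 1.4) and 0.956 (0.726 to 1.26), so neither arm was separated from the rest by counting error. The 5p ratio over the 5q ratio was 1.17 (0.822 to 1.66). With a fold enrichment of at least 10 the ratio was 2.55 on 5p and 2.0 on 5q, against 1.91 on the other chromosomes, and among the few peaks with a score of 100 or more that on 5q turned to 0.667, from 6 control and 4 edited peaks.

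For KDM4C the arms parted. On 5p the peaks went from 31 in control to 70 in edited cells, a ratio of 2.26 (1.46 to 3.57). All other chromosomes gave 1.26, so that 5p was at 1.79 relative to them (1.15 to 2.85). Unlike 5p, those chromosomes were not trimmed. The 37 trimmed arms went from 755 to 1122 KDM4C peaks, a ratio above 1.26 that lies within the 5p interval. An interval relative to the trimmed arms was not computed. On 5q there were 33 peaks in each, a ratio of 1.0 (0.598 to 1.67), or 0.794 relative to the other chromosomes (0.472 to 1.33). The 5p ratio over the 5q ratio was 2.25 (1.13 to 4.51). KDM4C on 5p was the only one of the 4 arm and antibody pairs whose interval relative to the untrimmed other chromosomes left out 1. The intervals are not adjusted for the 4 pairs. Single arms elsewhere also changed in number, in both directions. From control to edited cells, KDM4C peaks went from 16 to 67 on 13q and from 15 to 32 on 6p, but from 25 to 13 on 7p. The difference between antibodies was not separated from none on either arm, with a KDM4C ratio over the ARID3B ratio of 1.36 on 5p (0.833 to 2.27) and 0.708 on 5q (0.393 to 1.27). The edited KDM4C library was the shallowest, with 16209985 filtered tags against 20668533 in control cells, and its tags were 72 bp long against 75 bp. The part of these differences in the result was not tested. Scaling to filtered tags raises every KDM4C ratio alike, to 2.88 on 5p, 1.28 on 5q and 1.61 on the other chromosomes. Among peaks with a fold enrichment of at least 10, 5p had 5 control and 25 edited peaks, a ratio of 5.0 (1.88 to 16.7), or 3.33 relative to the other chromosomes (1.24 to 11.2). On 5q the same minimum left 16 and 25 peaks, a ratio of 1.56 (0.802 to 3.13), where the other chromosomes gave 1.5.

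**Figure D3:**
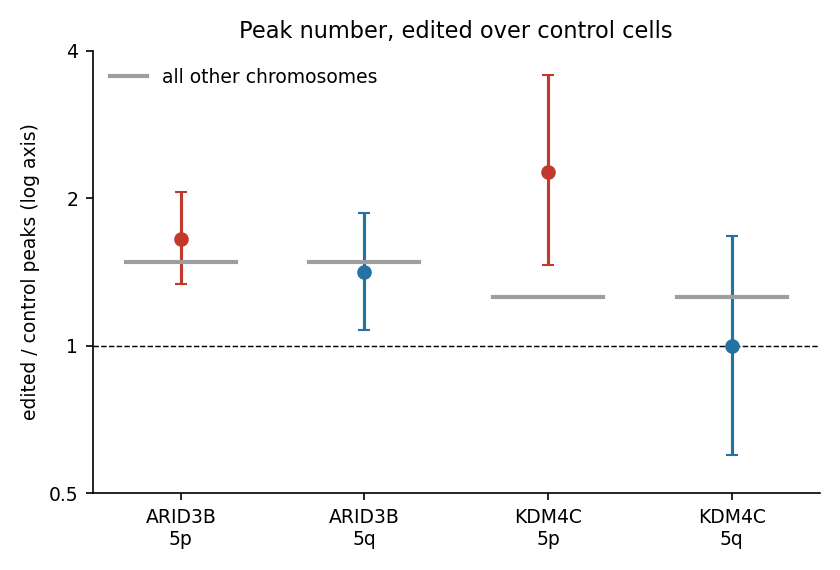
Ratio of the number of peaks in edited to control cells (vertical log axis) for each antibody and arm (horizontal axis), with exact 95% intervals. Grey lines mark the ratio on all other chromosomes, untrimmed, 1.48 for ARID3B and 1.26 for KDM4C. Only the interval of KDM4C on 5p lies wholly above its grey line.

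The same comparison was made window by window. A window counted as past the threshold when its edited to control ratio was at least 2 times higher or lower than that of the whole lists, among windows with 5 or more peaks in the 2 lists together. The windows of the other autosomes were not trimmed, and so include chromosome ends and the surroundings of centromeres. Among them, 16.6% of ARID3B windows were past it upwards and 12.8% downwards. On 5p 0 of 8 ARID3B windows were past it in either direction, and on 5q 2 of 21 were past it upwards and 2 downwards. For KDM4C, 22.0% of the windows on the other autosomes were past it upwards and 5.76% downwards. On 5p 4 of 8 KDM4C windows were past it upwards and 0 downwards, and on 5q 0 of 3 upwards and 1 downwards. The first window of 5p, from 3 to 8 Mb, showed the largest relative ratio of the arm, 6.58, from 1 control and 12 edited KDM4C peaks. Its ARID3B counts were 19 and 25.

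The peaks of the arms differed in their tags and in the coverage around them. Giving ARID3B before KDM4C, and control before edited cells within each, a 5p peak held a median of 15, 13, 15 and 12 tags and a 5q peak 12.5, 10, 11 and 9. The median fold enrichment over local background, as the caller gives it, was nevertheless lower on 5p, at 7.98 to 9.39, than on 5q, at 8.99 to 10.5, and lower in each of the 4 libraries. Over the 37 other arms it was 8.86, 9.82, 9.56 and 10.5. Median scores ran from 55.2 to 57.0 on 5p and from 54.3 to 55.2 on 5q.

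Local background was solved from the tag count and score of each peak and is given relative to the genome mean of its library. The caller takes it from 10 kb around the peak and never sets it below the genome mean. On 5p its median was 1.35 (quartiles 1.14 and 1.63) and 1.4 (1.10 and 1.67) for ARID3B, in control and edited cells. For KDM4C it was 1.42 (1.26 and 2.06) and 1.45 (1.19 and 1.84). On 5q the medians were at or close to the floor, at 1.01 and 1.0 for ARID3B and 1.10 and 1.0 for KDM4C. In tags, the 10 kb around a 5p peak of the control ARID3B library held a median of 122, that around a 5q peak 91.5, and an average stretch of the genome 90.5. Of the 5p peaks, 65.2% to 80.6% had a background of at least 1.2 times the genome mean, against 11.3% to 39.4% of the 5q peaks. Over the 37 other arms the share was 46.6% and 44.2% for ARID3B and 50.2% and 47.7% for KDM4C, so 5p lay above and 5q below it in each library.

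In the control ARID3B library 36 of the 37 other arms held a peak, and their median backgrounds ranged from 1.0 to 1.65, with 6 arms above 5p. In the other lists 5 or 6 were above it, so 5p was high by this measure without being the highest. With both chromosome 5 arms included, density and median background had a Spearman rho of 0.80 over 38 arms for control ARID3B. Over 39 arms it was 0.73 for edited ARID3B, and 0.60 and 0.53 for control and edited KDM4C. This is a description over arms of the same libraries, in which a peak adds its own tags to its background. The part of coverage in the density of 5p was not tested.

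**Figure D4:**
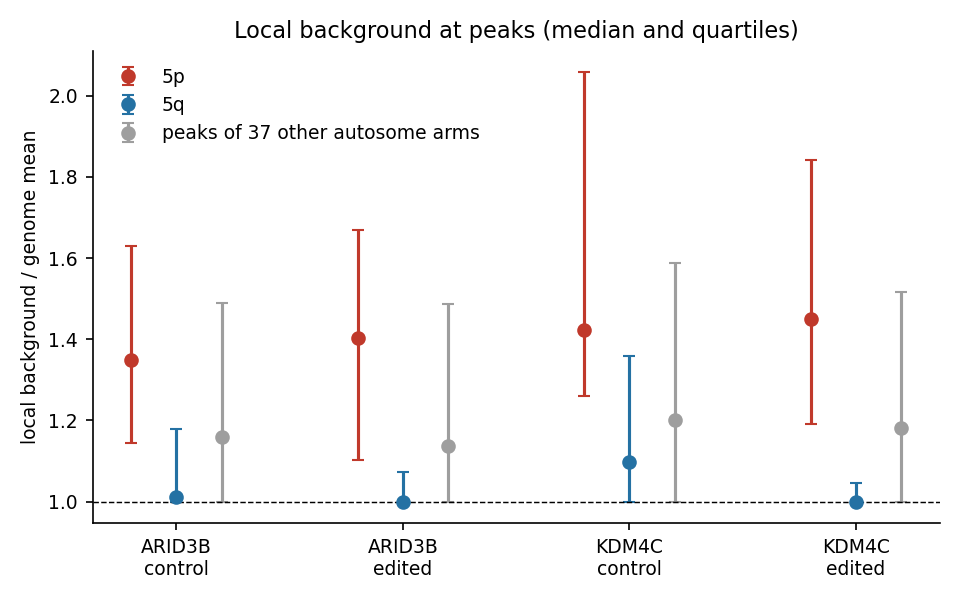
Local background at peaks relative to the genome mean (vertical axis) in each library, as the median with quartiles, for 5p (red), 5q (blue) and the pooled peaks of 37 other arms (grey). The dashed line is the genome mean, the lowest value that the caller allows. The 5p medians lie between 1.35 and 1.45 and the 5q medians between 1.0 and 1.10.

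Few peaks of either arm were found again in a second list. For control ARID3B, 18 of 139 peaks on 5p overlapped a peak of at least 1 other list by 1 bp or more, or 12.9% (7.86 to 19.7), and 13 of 94 on 5q, or 13.8% (7.57 to 22.5), where 28.0% of the whole list did. For edited ARID3B the shares were 21 of 230 on 5p, or 9.13% (5.74 to 13.6), and 15 of 133 on 5q, or 11.3% (6.45 to 17.9), against 21.5% of the whole list. Counting error did not separate the arms, and both were below their lists. For control KDM4C, 8 of 31 on 5p (25.8%, 11.9 to 44.6) and 7 of 33 on 5q (21.2%, 8.98 to 38.9) were found again, against 48.9% of the list. For edited KDM4C it was 12 of 70 (17.1%, 9.18 to 28.0) and 5 of 33 (15.2%, 5.11 to 31.9), against 39.5%.

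The whole lists include the surroundings of the centromeres. Over the 37 other arms trimmed by the same margins, the share was 16.2% (control) and 11.97% (edited) for ARID3B, and 28.2% and 22.5% for KDM4C. Relative to those arms, the odds of being found again on 5p were 0.771 (0.436 to 1.29), 0.739 (0.442 to 1.18), 0.885 (0.337 to 2.09) and 0.711 (0.342 to 1.36), in the library order used above. On 5q they were 0.831 (0.420 to 1.52), 0.935 (0.502 to 1.63), 0.685 (0.247 to 1.65) and 0.614 (0.183 to 1.63). All 8 estimates were below 1, and all 8 intervals included 1.

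Sharing was then set against the score. Of the control ARID3B peaks scoring under 60, 1 of 90 on 5p and 5 of 65 on 5q were found again, against 9.29% of the whole list in that class. Of those scoring 60 to 100 it was 12 of 42 and 3 of 23, against 35.7%, and of those scoring 100 or more 5 of 7 and 5 of 6, against 95.1%. The share thus rose with the score on both arms, as it did over the list. For edited ARID3B the counts in the same 3 classes were 4 of 144, 9 of 77 and 8 of 9 on 5p, and 2 of 93, 9 of 36 and 4 of 4 on 5q. The whole list had 6.97%, 26.7% and 96.2%.

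For control KDM4C they were 3 of 21, 3 of 8 and 2 of 2 on 5p, and 5 of 27, 1 of 5 and 1 of 1 on 5q, against 17.4%, 65.3% and 99.4%. For edited KDM4C they were 3 of 42, 6 of 25 and 3 of 3 on 5p, against 15.0%, 54.5% and 98.8%. On 5q the edited KDM4C counts did not follow the score, with 3 of 28, 0 of 3 and 2 of 2, and the middle class there is too small to read. The whole lists include the surroundings of the centromeres, and the 37 trimmed arms had lower shares in the first and middle class. For control ARID3B these were 6.31% and 23.2%. For KDM4C they were 10.9% and 48.6% in control and 8.63% and 39.3% in edited cells. The chromosome 5 arms together gave 16.7% and 30.8% for control and 8.57% and 21.4% for edited KDM4C. The intervals of these KDM4C odds relative to the trimmed arms all included 1. Among peaks that reached a score of 100, 3 of 13 control ARID3B and 1 of 13 edited ARID3B peaks were found in 1 list alone. On the 37 trimmed arms 90.6% of 128 control and 97.3% of 147 edited ARID3B peaks of that class were found again. Relative to those arms, the odds of being found again were 0.348 (0.0745 to 2.24) and 0.339 (0.0302 to 17.9).

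Overlap was also counted list by list, which can only give shares at or below those for any other list. For ARID3B, 16 of 139 control peaks on 5p (11.5%) and 12 of 94 on 5q (12.8%) overlapped an edited peak, against 25.2% of the list and 14.5% over the 37 other arms. In the other direction it was 16 of 230 (6.96%) and 12 of 133 (9.02%), against 17.3% and 9.72%. For KDM4C, 5 of 31 control peaks on 5p and 2 of 33 on 5q overlapped an edited peak, against 36.7% of the list and 20.9% over the other arms. Of the edited KDM4C peaks 4 of 70 and 2 of 33 overlapped a control peak, against 27.7% and 13.5%. Most edited KDM4C peaks thus had no counterpart among the control KDM4C peaks, on both arms as on the other arms. This held for 66 of 70 on 5p and 31 of 33 on 5q. Across antibodies, 7 of 31 control KDM4C peaks on 5p and 4 of 33 on 5q overlapped a control ARID3B peak, against 39.3% of the list and 23.4% over the other arms. Of the edited KDM4C peaks, 10 of 70 and 5 of 33 overlapped an edited ARID3B peak, against 35.2% and 19.96%. The differences between these shares and those of the other arms were not tested list by list.

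**Figure D5:**
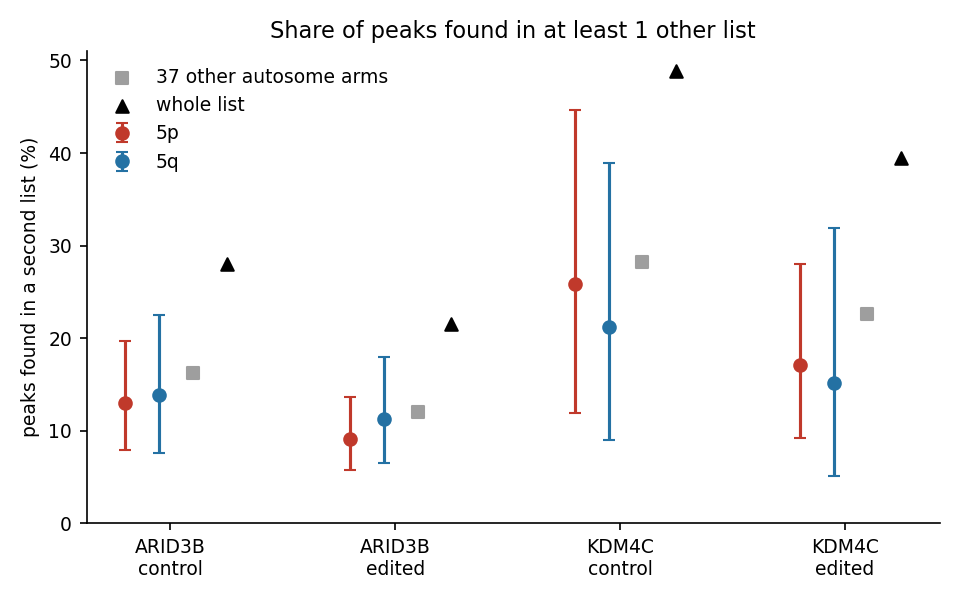
Share of peaks found in at least 1 other list, in percent (vertical axis), for each library, on 5p (red) and 5q (blue) with exact 95% intervals, over 37 other autosome arms (grey squares) and in the whole list (black triangles). The arms overlap each other and the grey squares, and lie below the black triangles.

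Merged over the 4 lists, the peaks formed 433 regions on 5p and 269 on 5q. Of these, 411 (94.9%) and 253 (94.1%) were called in 1 list, and 4 (0.924%, 0.252 to 2.35) and 2 (0.743%, 0.0902 to 2.66) in all 4. Over the whole genome 88.1% of 9138 regions were in 1 list and 4.62% in all 4, and over the 37 other arms 93.6% and 2.04% of 6458 regions. The largest class was edited ARID3B alone, with 209 regions on 5p and 118 on 5q, followed by control ARID3B alone, with 121 and 81. Over the whole genome these 2 classes came in the same order, with 3795 and 2349 of the 9138 regions. These are also the longest lists, with 4834 and 3264 peaks. No region on 5q was called in edited ARID3B and edited KDM4C alone, and 3 on 5p were, too few to tell the arms apart. The share of this class of 2 lists on other chromosomes was not counted.

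The 6 regions called in all 4 lists were of different kinds. The strongest of chromosome 5 lay on 5q, at chr5:71146655-71147060. Its fold enrichment was 30.1 from 59 tags (control) and 43.1 from 75 tags (edited) for ARID3B, and 34.55 from 52 tags and 37.7 from 53 tags for KDM4C. No value on 5p came near these, where the highest fold enrichment of any list was 17.6. The other 5q region, at chr5:60956217-60956568, had 24.4, 31.1, 12.7 and 22.8 in the library order used above, from 22, 19, 9 and 13 tags. Both 5q regions had the higher fold in the edited list of each antibody, but fold values of lists with different depth do not show a change of binding.

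On 5p, 3 of the 4 such regions lay within 17.5 to 17.6 Mb. They were chr5:17517623-17522517, chr5:17583544-17586482 and chr5:17597165-17598439, with lengths of 4895, 2939 and 1275 bp. Their fold enrichments were low, from 3.47 to 4.72, and their tags many, from 142 to 374 in the leading peak of a list. The local background there was 7.79 to 11.5 times the genome mean in all 4 libraries. A further region called in 3 lists, chr5:17598546-17599663, adjoined them, with fold enrichments of 3.09 to 3.36. The remaining 5p region of all 4 lists, at chr5:14347043-14347597, had fold enrichments of 13.8, 10.85, 12.8 and 11.4 from 44, 35, 30 and 31 tags, over a background of 1.62 to 2.26.

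Regions of 3 lists numbered 5 on 5p and 4 on 5q, and each held both ARID3B lists. At chr5:32370223-32370660 the fold enrichment was 11.1 and 13.5 for ARID3B, in control and edited cells, and 16.2 for KDM4C in edited cells. At chr5:130631345-130631711 it was 10.3, 19.6 and 15.8 in the same lists, from 10, 14 and 10 tags. Control KDM4C was the missing list at 6 of the 9 regions and edited KDM4C at 3. Control KDM4C was also the shortest list, with 1494 peaks, and both ARID3B lists were longer than either KDM4C list. The same count was not made over the regions of 3 lists on other chromosomes.

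The leading peaks called in 1 list alone lay within the range of the shared regions on 5q and reached above it on 5p. On 5p their highest fold enrichments were 13.8 at chr5:27094283-27094496 in control ARID3B, 17.6 at chr5:33252208-33252519 in edited ARID3B, 12.5 at chr5:20127185-20127445 in control KDM4C and 14.3 at chr5:27101328-27101666 in edited KDM4C. The value of 17.6 was the highest of the arm, above the 16.2 of a region of 3 lists. These peaks rested on 13, 14, 14 and 13 tags. On 5q they were 16.7 at chr5:105724292-105724689, 18.0 at chr5:176667510-176667749, 18.2 at chr5:118632785-118633104 and 15.8 at chr5:128145306-128145600, from 26, 13, 17 and 11 tags. On 5p, 12 of 139 control and 34 of 230 edited ARID3B peaks had another summit of the same list within 10 kb, and on 5q 2 of 94 and 6 of 133. For KDM4C it was 2 of 31 and 4 of 70 on 5p, and 0 of 33 in each list on 5q. This count was not made over other arms, and it rises with peak density.

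Outside the bounds, the 9 Mb between the arms, which hold the centromere, had 18 and 23 ARID3B peaks and 18 and 13 KDM4C peaks. Per Mb of the whole span that is 2.0 and 2.56 for ARID3B, and 2.0 and 1.44 for KDM4C. The span includes the centromere gap, where no peak can lie, so these are lower limits. The control KDM4C value was above that of 5p, and the others cannot be ranked against 5p in this way. The first 3 Mb of the chromosome had 9 and 10 ARID3B peaks, or 3.0 and 3.33 per Mb, and 2 and 3 KDM4C peaks. For control ARID3B, the nearest peaks to the inner edge of 5p had a fold enrichment of 8.25 inside (chr5:43397220-43397490) and 9.94 outside (chr5:43874228-43874377). At the outer edge of 5q all 4 lists had a peak just outside, starting between 178012395 and 178012450, with fold enrichments of 18.2 to 22.1.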

How the data were processed

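ChIP-seq peak lists of 4 libraries from OECM1 cells were analysed, grouped by sample title. Peaks were called with MACS 1.4.2 for each library separately and without a control library, per the file headers, with a cutoff of 1e-05 on p, a local window of 10 kb, an effective genome size of 2.7 Gb and no more than 1 tag kept at a position. The submitters' processing notes name GRCh37, bcl2fastq 2.1.5 and BWA 0.7.12. The deposited tag counts are whole numbers per peak and not normalized. The deposited score is minus 10 times log10 of the p-value, and the deposited fold enrichment is a ratio to local background. Peak length and summit offset are deposited in bp.

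A peak belonged to an arm when it lay wholly within the bounds. Overlap meant at least 1 bp. Shares have Clopper-Pearson intervals, densities exact Poisson intervals, ratios of counts exact binomial intervals, and ratios of ratios exact conditional intervals (SciPy 1.17.1). Background was solved from the Poisson probability of more tags than were counted. Summit heights derived from it were whole within 0.05 for 91.5% to 96.4% of peaks, and 1 arm peak gave none. The steps returned the planted values on simulated data. Centromere gaps and lengths of the other chromosomes in GRCh37 were entered by hand. Regions were named by a fixed rule: all regions of 4 lists, up to 2 leading peaks of 1 list alone for each arm and library, the fullest and emptiest windows, and peaks at the edges. Regions of 3 lists were added after their values were seen, and so was the comparison with trimmed arms. The arms, rules and tests were chosen with earlier results of these data known. The alternatives were other score and fold minimums, other definitions of overlap, other windows and bounds, and scaling to depth. No sequence or gene annotation on GRCh37 was used here.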

Additional observations from a re-analysis of the deposited data

Results flagged for a closer look

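The number of KDM4C peaks in edited over control cells differed between the arms. The 5p ratio over the 5q ratio was 2.25 (exact 95% interval 1.13 to 4.51), from 31 control and 70 edited peaks on 5p and 33 of each on 5q. Each count comes from 1 library, and the interval covers counting error only. The same quantity for ARID3B was 1.17 (0.822 to 1.66).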

How the results depend on the processing

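Each group held 1 library. No paired analysis was possible because no group had a second library, and none could be left out. The 5p density was above that of 5q in all 20 alternative values. At a score minimum of 60 the ratio moved to 5.18 for control KDM4C and 17.4 for edited KDM4C, and at a minimum of 100 to 6.99 for edited ARID3B and 6.21 for control KDM4C, the last with an interval from 0.323 to 367. Leaving out the fullest window of each arm, chosen after seeing the data, moved none of these ratios, nor those of edited to control cells, beyond their intervals. Of the 24 alternative ratios of edited to control cells, 1 reversed: ARID3B on 5q gave 0.667 at a score of at least 100, from 6 control and 4 edited peaks. At that score ARID3B on 5p gave 1.29 and KDM4C on 5q 2.0. With a fold enrichment of at least 10 the ratios were 2.55 and 2.0 for ARID3B on 5p and 5q and 5.0 for KDM4C on 5p. A shallower library needs a higher fold enrichment at the same threshold, and the part of depth in these ratios was not tested.

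Counting peaks with a score of at least 60 in both lists raised 7 of the 8 shares found in a second list. They went to 28.6% and 27.6% for control ARID3B on 5p and 5q, and 18.6% and 20.0% for edited ARID3B. Edited KDM4C gave 32.1% (15.9 to 52.4) on 5p and 40.0% (5.27 to 85.3) on 5q, and control KDM4C 40.0% (12.2 to 73.8) on 5p. The control KDM4C share on 5q went from 21.2% to 16.7% (0.421 to 64.1). Summits within 100 bp lowered the edited ARID3B share on 5p to 5.22%. The variance to mean ratio moved by over 1.5 times in 9 of 32 alternative values. On 5p it went to 2.83 (control ARID3B), 0.924 (edited ARID3B) and 4.51 (control KDM4C) in 10 Mb windows, of which there are 4, to 1.06 for edited ARID3B in windows laid from the end of the arm, and to 1.11 for edited ARID3B and 4.29 for control KDM4C at a score of at least 60. On 5q it went to 0.983 for control ARID3B and 1.49 for control KDM4C at that score, and to 1.51 for control KDM4C in 2 Mb windows. Without the peak's own tags, chosen after seeing the data, the median background was 0.890, 0.884, 0.941 and 0.850 on 5q and 1.16, 1.22, 1.25 and 1.2 on 5p, in the library order of the report. The 5q values are upper limits, as the caller's floor hides lower coverage. The cause of these changes was not tested.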
